A study of Homo sapiens with 24 samples.

Results

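The 36 genes described here act in S phase and DNA replication, and were measured in SH-SY5Y cells. They were chosen by gene symbol as genes that license origins, fire them, run the replication fork, supply nucleotides, control entry into S phase or assemble chromatin behind the fork. All 36 were found among the 20061 genes named on the array, and all 36 were among the 15045 genes tested. Where a gene had several features, the brightest one stood for it.

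SH-SY5Y is a human neuroblastoma cell line with neuronal features. Its cells were transfected with the expression plasmid pCAGIG, and RNA was taken 24 h later. In the V79_8x group the plasmid carried the 5' untranslated region (UTR) of FMR1 with 79 CGG repeats in a condition labelled as overexpressing, in V79 the same region with 79 repeats, in V21 the region with 21 repeats, and in Mock the plasmid was empty. Each group had 6 arrays, lettered by experiment B to G, which the design text calls biological replicates. The labels do not explain the term 8x. Names of the arrays read V80 where the labels have V79, and V80x2 where they have V79 8x. All 4 groups share the cell line, the vector and the time, and the share of cells that took up the plasmid is not given, so an array may mix transfected and untransfected cells.

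DNA replication begins in G1, when the origin recognition complex with CDC6 and CDT1 loads the ring of MCM2 to MCM7 onto origins. In S phase, CDC45 and the GINS complex join that ring to make the active helicase, and polymerases, the sliding clamp PCNA and its loader copy the strands. Many of these genes are targets of E2F transcription factors, which are released from the retinoblastoma proteins as cells pass from G1 into S phase. In a growing culture their RNA therefore follows how many cells are entering or passing through S phase. In bulk RNA, fewer cells in S phase and less RNA in each such cell cannot be told apart.

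The promoters of the members carried the E2F motif more often than most promoters. RefSeq windows of build GRCh38.p14, each holding the gene's start and the bases upstream of it, were matched for 32 of the 36 members. The motif was searched as the words TTTCCCGC, TTTCGCGC, TTTGCCGC and TTTGGCGC on both strands, and matches may overlap. It was present in 17 of 32 member promoters (53.1%), against 908 of 27305 promoters in all (3.33%) and 5.1% of those of tested genes. The word CCAAT, bound by NF-Y, was present in 18 of 32 (56.2%), against 35.7% of all promoters. A match describes the letters and shows no binding. The windows below are shown because they belong to members whose values the results turn on, or to classical E2F targets. Each gives the gene's own strand 5′ to 3′, with the match in capitals.
MCM6, chr2:135876577-135876606, minus strand: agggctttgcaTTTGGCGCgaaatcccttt
MCM6, chr2:135876515-135876544, minus strand: cattggtcaggTTTGGCGCgaaatctccag
GINS2, chr16:85688967-85688996, minus strand: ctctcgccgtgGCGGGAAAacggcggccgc
E2F1, chr20:33686387-33686416, minus strand: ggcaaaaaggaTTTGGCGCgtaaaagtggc
RFC3, chr13:33818083-33818112, plus strand: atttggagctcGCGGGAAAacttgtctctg
CDC6, chr17:40287875-40287904, plus strand: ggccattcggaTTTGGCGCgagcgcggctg
PCNA, chr20:5126663-5126692, minus strand: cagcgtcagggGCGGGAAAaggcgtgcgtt
TYMS, chr18:657603-657632, plus strand: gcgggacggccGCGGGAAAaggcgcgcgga
In MCM6 the same word stands at both places (positions -152 and -90 from the start), each overlapped on the other strand by TTTCGCGC. GINS2, RFC3, PCNA and TYMS carry TTTCCCGC read on the other strand. The words were not found in the windows of ORC1, MCM10, CDC45, PRIM1, RFC2, RFC4, RFC5, FEN1, RRM1, RRM2, TK1, CCNE1, CHAF1A, CHAF1B and SLBP.

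The values are the authors' deposited log2 intensities. All 24 arrays share the same distribution of values as deposited (sorted arrays differ by at most 0.01), so only shifts relative to the other genes can be measured. Differences were tested with limma in 1 fit over the 4 groups, with p-values adjusted by Benjamini-Hochberg over the 15045 genes and a threshold of 0.05. "Fell" and "rose" refer to genes past it. Levels are log2 intensities and are given with the SD over arrays, while log2 differences are given with their standard errors. Of the line's noradrenergic markers 11 were tested, from PHOX2A at 8.16, TH at 8.36 and HAND1 at 8.87 to DBH at 13.03, GATA3 at 13.07 and HAND2 at 14.43, with STMN2 highest at 16.38. Markers of the mesenchymal state ran from WWTR1 at 7.15 to CD44 at 11.88 and TWIST1 at 13.7. The glial and blood markers GFAP, SOX10, MBP and HBB lay at 6.14, 6.26, 6.23 and 6.28, and the epithelial markers KRT5 and KRT14 at 5.95 and 6.34. All of these were under the filter limit of 6.43. The glial marker S100B (8.41), the blood markers PTPRC (6.87) and CD3E (6.57) and the epithelial marker EPCAM (6.56) lay above it.

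A set of 4 arrays stood apart from the rest of their groups: V79 B, V21 B, V21 C and Mock D. The SD over all genes of an array's shift from its group median was 0.387 to 0.476 on them and 0.107 to 0.223 on the other 20. None of them belongs to V79_8x, whose array of experiment B stayed in both fits. Over all genes, the deviations of V79_8x B correlated with those of V79 B (0.43) and V21 B (0.44). Those of V79 B and V21 B correlated with each other at 0.77. Most S phase genes were lower on these 4 arrays, so values with and without the 4 are given for the members the results turn on. Against the median of the other arrays of their group, 30 of the 36 members were lower on V79 B, 29 on V21 B, 27 on V21 C and 28 on Mock D. Between 18 and 20 members lay below the whole range of the other 20 arrays on each. Their median shift was -0.22 on V79 B, -0.21 on V21 B, -0.28 on V21 C and -0.22 on Mock D, where that of all genes tested lay between -0.13 and -0.06. The shares of all genes that were lower, or below the range of the other 20, on these arrays were not counted.

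**Figure D1:**
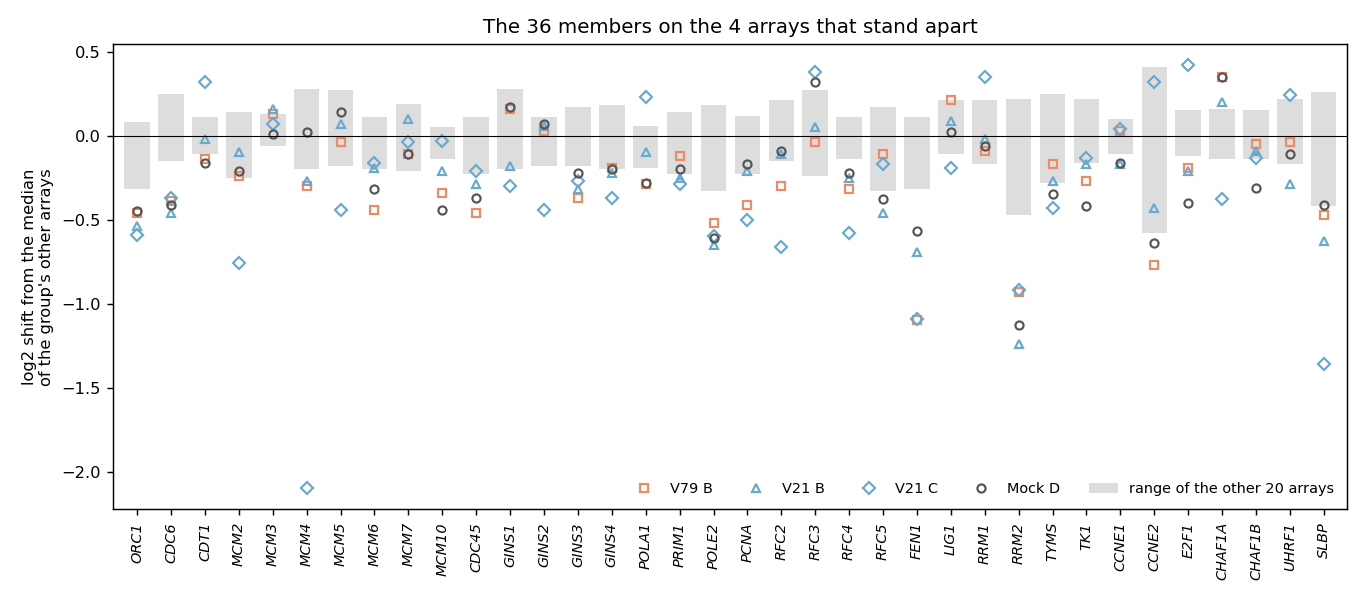
Log2 shift of each of the 36 members on V79 B (squares), V21 B (triangles), V21 C (diamonds) and Mock D (circles) from the median of the other arrays of its group. Grey bars span the shifts on the other 20 arrays. ORC1, CDC6, GINS3, POLE2, RFC4, FEN1 and RRM2 lie below the bar on all 4 arrays, and MCM4 and SLBP are far down on V21 C.

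RRM2, the small subunit of ribonucleotide reductase, which makes deoxynucleotides, had the widest spread. It lay at 9.19 on V79 B, 8.91 on V21 B, 9.23 on V21 C and 9.11 on Mock D, while the lowest of the other 20 arrays was at 9.68. FEN1, the nuclease that trims Okazaki fragments, lay at 10.34, 10.72, 10.32 and 10.81 on the same 4 arrays, all under the lowest of the others at 10.99. MCM4, a helicase subunit, was at 9.22 on V21 C and between 10.95 and 11.57 on all other arrays. SLBP, which binds the stem-loop of histone mRNAs, was at 10.89 on V21 C, 11.62 on V21 B, 11.67 on V79 B and 11.81 on Mock D, against 11.83 to 12.40 on the other 20. Some members went the other way there. CHAF1A, a subunit of the histone chaperone CAF-1, was above the range of the other 20 on V79 B, V21 B and Mock D (shifts of 0.35, 0.20 and 0.35) and below it on V21 C (-0.38). E2F1 was at 11.39 on V21 C, the highest of 24 arrays, and at 10.55 on Mock D, the lowest.

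On the same arrays the replication-dependent histone genes moved upward, by a median of 0.38 on V79 B, 0.61 on V21 B, 1.03 on V21 C and 0.44 on Mock D. G2 and mitosis genes moved with the members (-0.21, -0.26, -0.17 and -0.20 in the same order), and so did other replication genes (-0.15, -0.16, -0.18 and -0.14). On the other 20 arrays the median shift of the members from the median of all arrays of the group lay between -0.08 and 0.09, and that of the histone genes between -0.15 and 0.10. What set the 4 arrays apart was not tested.

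**Figure D2:**
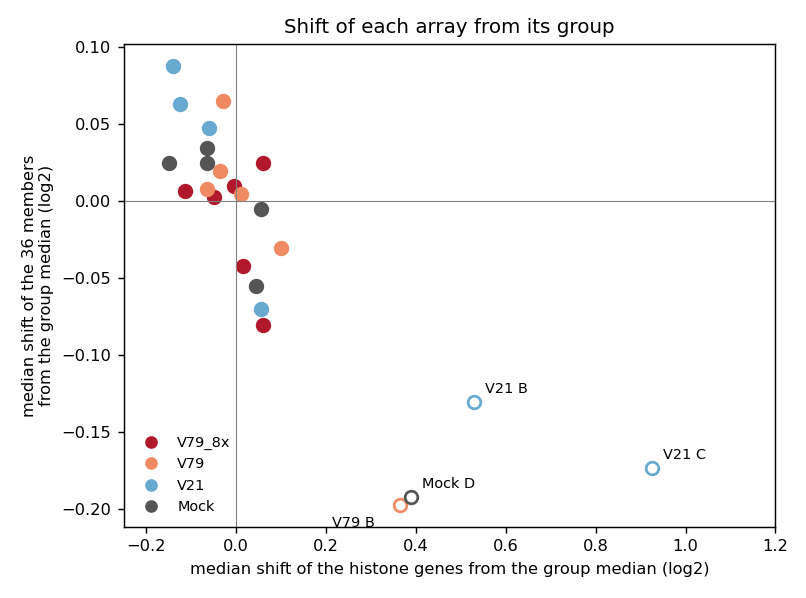
Median shift of the 36 members (vertical axis) against that of the histone genes (horizontal axis), each the log2 distance from the median of the array's own group, 1 point per array. Open points are V79 B, V21 B, V21 C and Mock D, which lie low for the members and high for the histones, while the other 20 lie within -0.08 to 0.09 and -0.15 to 0.10.

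Mean levels of the 36 members were nearly the same in the 4 groups. The mean over the members was 11.75 ± 0.05 in V79_8x, 11.79 ± 0.10 in V79, 11.78 ± 0.15 in V21 and 11.83 ± 0.10 in Mock (SD, n = 6 arrays each). The arrays ranged from 11.68 to 11.79 in V79_8x, 11.59 to 11.89 in V79, 11.56 to 11.92 in V21 and 11.65 to 11.90 in Mock, so the groups overlapped. Around its group means a member varied with a median SD of 0.15, against 0.17 for all genes tested. MCM3, another helicase subunit, and CCNE1, cyclin E1, varied least (0.061 and 0.062), and RRM2 and MCM4 most (0.446 and 0.436). Around the group means, a member's correlation with the mean of the other members ran from -0.42 (MCM3) to 0.93 (POLE2, FEN1 and RRM2). On the other 20 arrays it ran from -0.53 (CDT1) to 0.88 (PRIM1, RFC3 and RRM2). Many members thus moved together, so counts of members with lower values are not counts of separate observations.

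With all 24 arrays and the brightest feature per gene, 0 of the 36 members passed the threshold in any of the 6 comparisons. In V79_8x against V79 that count of 0 stands beside 1.15% of all genes, in V79_8x against V21 beside 2.86% and in V79_8x against Mock beside 2.2%. The groups recur among the comparisons, which therefore are not independent. The members' values nevertheless leaned down in V79_8x: 27 of 36 were lower than in V79, 22 lower than in V21 and 34 lower than in Mock, where 47.9%, 42.6% and 45% of all genes were. The median log2 difference of the members was -0.06 against V79, -0.05 against V21 and -0.08 against Mock, and the medians of all genes were 0.01, 0.03 and 0.01.

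At an unadjusted p under 0.05, 0 members were lower in V79_8x than in V79 (2.01% of all genes were), 7 of 36 (19.4%) were lower than in V21 (7.58%) and 4 of 36 (11.1%) were lower than in Mock (2.95%), and 0 were higher in any of these. Against V21 the 7 were CDT1, MCM6, GINS2, RFC3, RRM1, E2F1 and UHRF1, and against Mock MCM6, GINS2, GINS4 and RFC3. These unadjusted counts are not calls. The 95% interval of the difference lay within 1.5-fold either way for 35 of 36 members against V79, 33 against V21 and 35 against Mock. The members with wider intervals were RRM2 against V79, MCM4, RRM2 and SLBP against V21, and MCM4 against Mock, which are members with wide spreads on the 4 arrays.

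**Figure D3:**
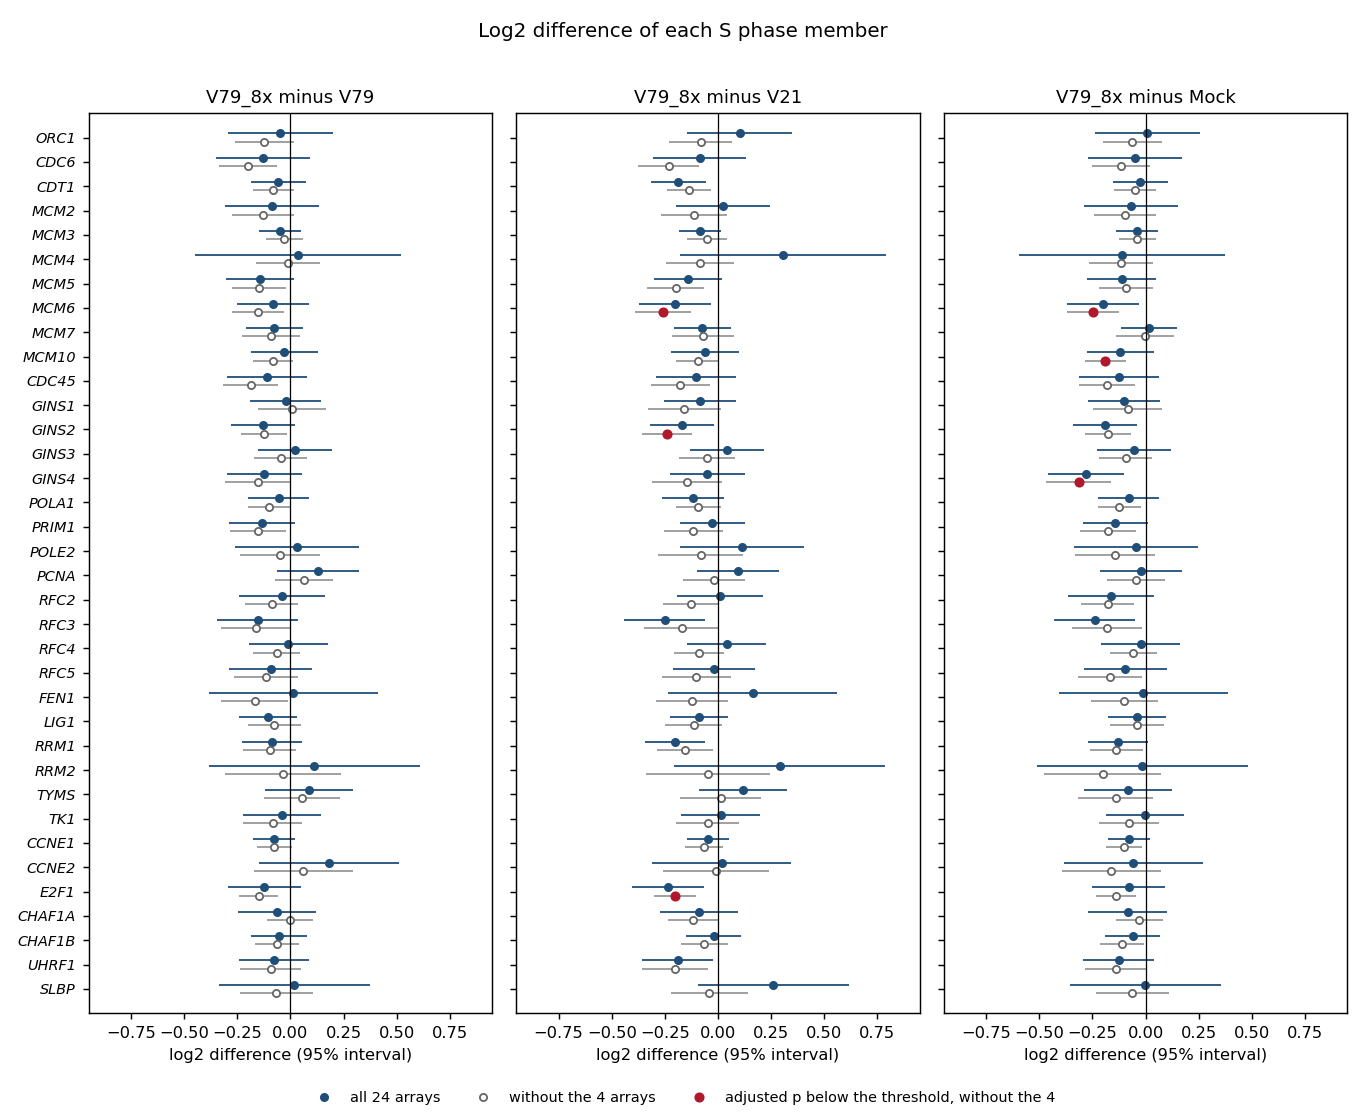
Log2 difference of each of the 36 members (rows) in V79_8x minus V79, minus V21 and minus Mock, with 95% intervals. Filled blue points are fits on all 24 arrays, open points fits without the 4 arrays, and red points members past the threshold without the 4. Most points lie left of 0, and leaving out the 4 arrays narrows the intervals of MCM4, RRM2, FEN1 and SLBP.

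Without the 4 arrays, 3 members fell against V21 and 3 against Mock, with MCM6 in both. Against V79, 0 of 36 passed (1.82% of all genes did) and the smallest adjusted p was 0.129, that of E2F1. Against V21 the count was 3 of 36 (8.33%), where 3.08% of all genes were called and 0.871% were called lower. Against Mock it was 3 of 36 (8.33%), where 3.97% were called and 1.58% were called lower. By their brightest features, lower values were found for 32 of 36 members against V79, 35 against V21 and 36 against Mock, with medians of -0.09, -0.11 and -0.12, beside -0.01, 0.00 and 0.00 for all genes. At an unadjusted p under 0.05 the members lower were 9 (25%) against V79, 10 (27.8%) against V21 and 14 (38.9%) against Mock, beside 4.92%, 5.13% and 7.01% of all genes. The interval of the difference then lay within 1.5-fold for 36 of 36 members in each comparison. V79_8x kept all 6 arrays here, V79 kept 5, V21 kept 4 and Mock kept 5. Most members were low on the 4 arrays, so leaving them out raised most of the means that V79_8x was compared with. That alone moved most differences of V79_8x downward, so the stronger lean here is not separate evidence of lower values in V79_8x.

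By role, the firing genes had the lowest medians against V21 and Mock on the other 20 arrays. Their medians were -0.10 against V79, -0.15 against V21 and -0.18 against Mock (5, 6 and 6 of 6 genes lower). Those of the licensing genes were -0.12, -0.11 and -0.09 (9 of 9 lower in each), and those of the fork genes -0.09, -0.11 and -0.13 (9, 10 and 10 of 10 lower). The nucleotide genes had -0.06, -0.05 and -0.14 (3, 3 and 4 of 4), the control genes -0.08, -0.07 and -0.14 (2, 3 and 3 of 3) and the chromatin genes -0.07, -0.09 and -0.09 (4 of 4 in each). The differences between these medians were not tested.

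Interferon-stimulated genes moved with the same group: 15 of 15 interferon markers rose in V79_8x against V79, against V21 and against Mock, and their mean over genes was 11.54 to 12.15 on the V79_8x arrays, 8.44 to 8.89 in V79, 8.22 to 8.58 in V21 and 8.42 to 8.86 in Mock. Of 10 mesenchymal markers, the other cell state of neuroblastoma lines, 1 fell against V21 and against Mock and 0 passed against V79 in the fit on all arrays. Their mean was 9.41 to 9.46 in V79_8x, 9.50 to 9.60 in V79, 9.46 to 9.69 in V21 and 9.49 to 9.57 in Mock, and COL1A2, a collagen chain, was the one that fell (-0.49 and -0.40). With the 4 arrays left out, 2 of the 10 fell in each of the 3 comparisons. Of 11 noradrenergic markers, 1 fell against Mock (ISL1, -0.24, adjusted p = 0.0232), and of the 1 glial and 3 epithelial or blood markers tested, 0 passed. The part of any of these lists in the lower S phase values was not tested.

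Among the licensing genes, MCM6 stood out. MCM6 is a subunit of the MCM ring, the motor of the replicative helicase. It lay between 12.31 and 12.56 in V79_8x (median 12.45), 12.17 and 12.71 in V79 (median 12.59), 12.51 and 12.75 in V21 (median 12.66), and 12.41 and 12.75 in Mock (median 12.70). With all arrays it differed by -0.20 ± 0.08 from V21 and by the same from Mock (adjusted p = 0.193 and 0.372), and by -0.08 from V79. The V79_8x arrays were all below the 4 V21 arrays that remain without V21 B and V21 C, at 12.65, 12.75, 12.68 and 12.71, while Mock B at 12.53 lay among them. On those arrays MCM6 fell by 0.26 on the log2 scale against V21 (± 0.06, adjusted p = 0.0218), which is 16.4% lower, and by 0.25 against Mock (± 0.06, adjusted p = 0.0156), which is 15.8% lower. Against V79 it was at -0.15 (adjusted p = 0.32). The call against V21 was lost without V21 E, V21 F, V21 G or V79_8x G (adjusted p of up to 0.0774), and the call against Mock held whichever of the 11 arrays was left out (adjusted p of up to 0.05 after rounding).

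The brightest features of the other licensing genes passed in no comparison with all arrays or without the 4. CDT1, the loading factor that is destroyed once S phase begins, lay between 12.15 and 12.30 in V79_8x (median 12.25), 12.17 and 12.37 in V79 (median 12.30), 12.26 and 12.69 in V21 (median 12.38), and 12.13 and 12.37 in Mock (median 12.27). It was at -0.19 ± 0.06 in V79_8x against V21 (adjusted p = 0.121), and its highest array was V21 C. Without V21 E alone it passed (adjusted p = 0.0488). CDC6, CDT1's partner in loading the ring, lay between 7.11 and 7.30 in V79_8x (median 7.22), 6.99 and 7.59 in V79 (median 7.38), 6.96 and 7.66 in V21 (median 7.34), and 6.92 and 7.38 in Mock (median 7.30). Its values were low on all 4 of the arrays that stand apart, and its differences of -0.13, -0.09 and -0.05 from V79, V21 and Mock did not pass (adjusted p = 0.98, 0.633 and 0.983). Without those arrays CDC6 was at -0.20 against V79 (adjusted p = 0.181) and -0.23 against V21 (adjusted p = 0.0829). MCM5 gave the smallest p in V79_8x against V79, at -0.14 ± 0.08 (adjusted p = 0.98), with 12.33 to 12.64 in V79_8x (median 12.38), against 12.40 to 12.69 in V79 (median 12.56). With the 4 left out, MCM5 was at -0.15 against V79 (adjusted p = 0.387) and -0.20 against V21 (adjusted p = 0.13).

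MCM4 was at +0.31 ± 0.24 in V79_8x against V21 with all arrays (adjusted p = 0.445). It lay between 11.10 and 11.34 in V79_8x (median 11.23) and between 9.22 and 11.39 in V21 (median 11.25), and without the 4 arrays it was at -0.08 (adjusted p = 0.761). MCM7 had a dimmer feature that differed from its brightest. The brightest gave -0.07 in V79_8x against V79, -0.07 against V21 and +0.02 against Mock, and the dimmer one -0.23, -0.39 and -0.27. Put in place of the brightest in the fit over all genes, the dimmer feature passed against V21 with all arrays (-0.39 ± 0.10, adjusted p = 0.0302) and not against V79 or Mock (adjusted p = 0.761 and 0.268). Without the 4 arrays it was at -0.25 against V21 (adjusted p = 0.118). The same exchange was made for all 46 further features of 12 members. With all arrays MCM7's was the 1 that passed in any comparison, so the count of 0 members holds for the brightest features. The files do not say which transcript forms the features read.

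Of the firing genes, GINS2, GINS4 and MCM10 passed without the 4 arrays. GINS2 and GINS4 encode subunits of the GINS complex, which joins the MCM ring and CDC45. GINS2 lay between 12.14 and 12.32 in V79_8x (median 12.25), 12.28 and 12.43 in V79 (median 12.38), 12.02 and 12.57 in V21 (median 12.46), and 12.25 and 12.51 in Mock (median 12.46). All V79_8x arrays were below 5 of the 6 V21 arrays, and V21 C at 12.02 was below them all. Over all arrays GINS2 was at -0.13 ± 0.07 against V79, -0.17 against V21 and -0.19 against Mock (adjusted p = 0.98, 0.213 and 0.3). On the other 20 arrays GINS2 fell by 0.24 ± 0.06 against V21 (adjusted p = 0.0162, 15.3% lower), and was at -0.18 against Mock (adjusted p = 0.061). With V21 C alone left out it passed against V21 (-0.25, adjusted p = 0.00837). The call on 20 arrays was lost without V21 E (adjusted p = 0.076). Its 10 spots, which read 1 accession, gave between -0.13 and +0.09 against V79, where 2 spots were above 0, between -0.19 and -0.08 against V21 and between -0.19 and -0.07 against Mock on all arrays. With the 4 left out, 6 of the 9 other spots passed against V21 when put in place of the brightest, and 1 of the 9 passed against Mock.

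GINS4 lay between 10.84 and 11.16 in V79_8x (median 10.98), 10.95 and 11.27 in V79 (median 11.11), 10.78 and 11.29 in V21 (median 10.99), and 11.09 and 11.46 in Mock (median 11.27). V79_8x was below Mock in 6 of 6 experiments, although the ranges overlapped. It gave the smallest p of a member against Mock with all arrays, at -0.28 ± 0.09 (adjusted p = 0.114). On the other 20 arrays it fell by 0.32 ± 0.07 against Mock (adjusted p = 0.0146, 19.6% lower), a call kept whichever array was left out. V79 and V21 also had lower values than Mock for GINS4 with all arrays, at -0.16 and -0.23 (adjusted p = 1 and 0.782). V79_8x was at -0.12 against V79 and -0.05 against V21 with all arrays, and at -0.15 against each (adjusted p = 0.529 and 0.503) without the 4.

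MCM10, which helps to switch on the assembled helicase, lay between 9.72 and 9.86 in V79_8x (median 9.82), 9.56 and 9.95 in V79 (median 9.89), 9.71 and 9.96 in V21 (median 9.90), and 9.58 and 10.05 in Mock (median 10). Mock D at 9.58 was below every V79_8x array, and the other 5 Mock arrays, from 9.88, were above them all. The difference from Mock was -0.12 with all arrays, and without the 4 MCM10 fell by 0.19 ± 0.05 (adjusted p = 0.0177, 12.3% lower). That call was lost without Mock F or Mock G (adjusted p of up to 0.062). The remaining firing genes CDC45, GINS1 and GINS3 passed in neither fit. CDC45 was at -0.19, -0.18 and -0.18 against V79, V21 and Mock without the 4 arrays (adjusted p = 0.214, 0.238 and 0.14).

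**Figure D4:**
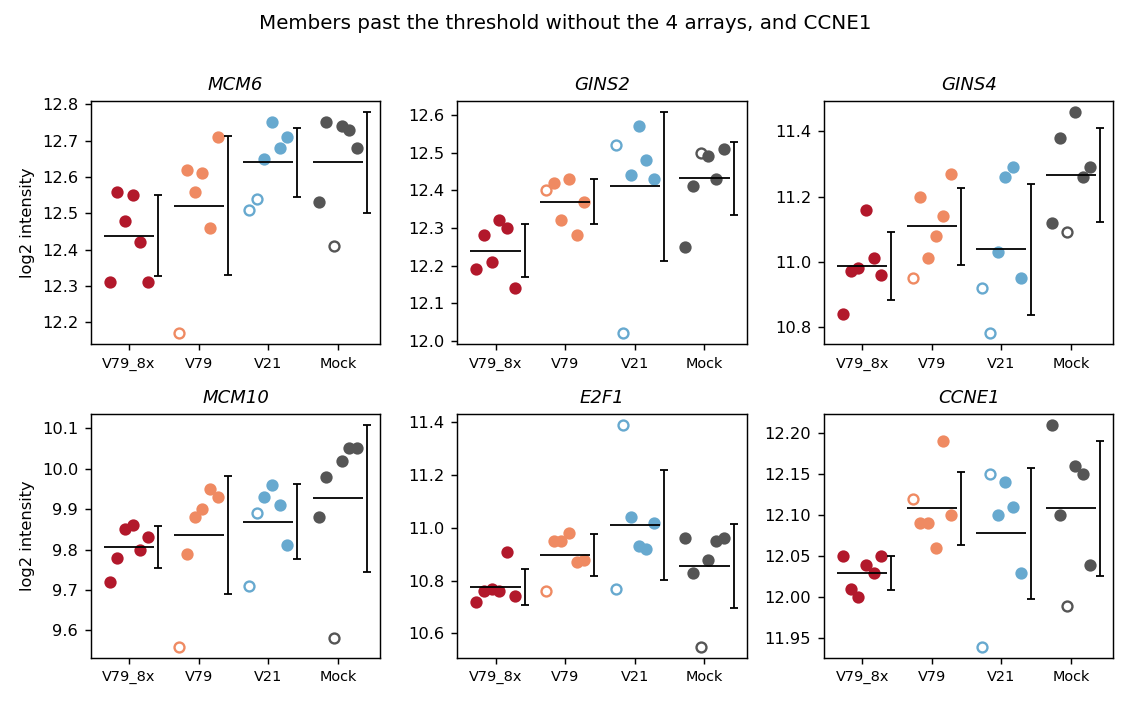
Log2 intensity of MCM6, GINS2, GINS4, MCM10, E2F1 and CCNE1 on each array, in the order V79_8x, V79, V21, Mock, with the group mean (line) and SD (bar, n = 6). Open points are V79 B, V21 B, V21 C and Mock D. The V79_8x arrays of GINS2 lie under 5 of the 6 V21 arrays, and those of CCNE1 lie between 12 and 12.05. Each vertical axis covers a narrow range and does not start at 0.

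Of the 10 fork genes, 0 passed in either fit. PCNA, the sliding clamp, lay between 13.13 and 13.48 in V79_8x (median 13.36), 12.87 and 13.35 in V79 (median 13.25), 12.87 and 13.49 in V21 (median 13.26), and 13.20 and 13.47 in Mock (median 13.39). The groups overlapped, and the differences of V79_8x were +0.13 from V79, +0.09 from V21 and -0.02 from Mock (adjusted p = 0.98, 0.555 and 0.994). With the 4 arrays left out they were +0.07, -0.02 and -0.04 (adjusted p = 0.851, 0.957 and 0.887). The other 2 PCNA features gave +0.15 and +0.17 against V79 and +0.02 and +0.01 against Mock. RFC3, a subunit of the clamp loader, lay between 8.99 and 9.26 in V79_8x (median 9.23), 9.11 and 9.60 in V79 (median 9.31), 9.15 and 9.75 in V21 (median 9.42), and 9.19 and 9.70 in Mock (median 9.41). It was at -0.25 ± 0.09 against V21 and -0.24 ± 0.09 against Mock (adjusted p = 0.156 and 0.316), and its second feature gave -0.22 in both. The highest V21 and Mock values of RFC3 were those of V21 C and Mock D, and without the 4 arrays it was at -0.17 and -0.18 (adjusted p = 0.437 and 0.285).

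PRIM1, the catalytic subunit of primase, lay between 10.61 and 10.95 in V79_8x (median 10.84), against 10.84 and 11.10 in V79 (median 10.96). Its difference of -0.14 ± 0.08 had the second smallest p of a member there (adjusted p = 0.98). FEN1 was at +0.01, +0.16 and -0.01 against V79, V21 and Mock with all arrays, and without the 4 at -0.17, -0.12 and -0.10 (adjusted p = 0.473, 0.626 and 0.666). POLA1, POLE2, RFC2, RFC4, RFC5 and LIG1, which encode polymerase subunits, clamp loader subunits and the ligase that seals Okazaki fragments, had differences between -0.16 (RFC2 against Mock) and +0.11 (POLE2 against V21) over the 3 comparisons, none past the threshold.

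The nucleotide genes passed in no comparison in either fit. RRM1, the large subunit of ribonucleotide reductase, lay between 13.14 and 13.39 in V79_8x (median 13.31), 13.29 and 13.44 in V79 (median 13.38), 13.30 and 13.76 in V21 (median 13.44), and 13.33 and 13.54 in Mock (median 13.40). It was at -0.20 ± 0.07 against V21 (adjusted p = 0.124), and without V21 E alone it passed (adjusted p = 0.0472). RRM2 lay between 9.72 and 10.29 in V79_8x (median 10.09), 9.19 and 10.24 in V79 (median 10.09), 8.91 and 10.33 in V21 (median 9.90), and 9.11 and 10.46 in Mock (median 10.18). Its differences of +0.11, +0.29 and -0.02 from V79, V21 and Mock had standard errors of 0.24, and none passed (adjusted p = 0.98, 0.476 and 0.998). On the other 20 arrays they were -0.03, -0.05 and -0.20 (adjusted p = 0.971, 0.949 and 0.578), so the signs against V79 and V21 turned. TYMS, which makes thymidylate, lay between 14.82 and 15.16 in V79_8x (median 14.91), 14.70 and 15.04 in V79 (median 14.86), 14.54 and 15.13 in V21 (median 14.80), and 14.76 and 15.28 in Mock (median 15.10). It was at -0.17 in V79 and -0.20 in V21 against Mock (adjusted p = 1 and 0.782), and in V79_8x at -0.09 (adjusted p = 0.955), none of which passed. Leaving out the 4 arrays, V79_8x was at -0.14 against Mock (adjusted p = 0.531). TK1, the salvage kinase for thymidine, was within 0.04 of each other group's mean in V79_8x with all arrays.

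**Figure D5:**
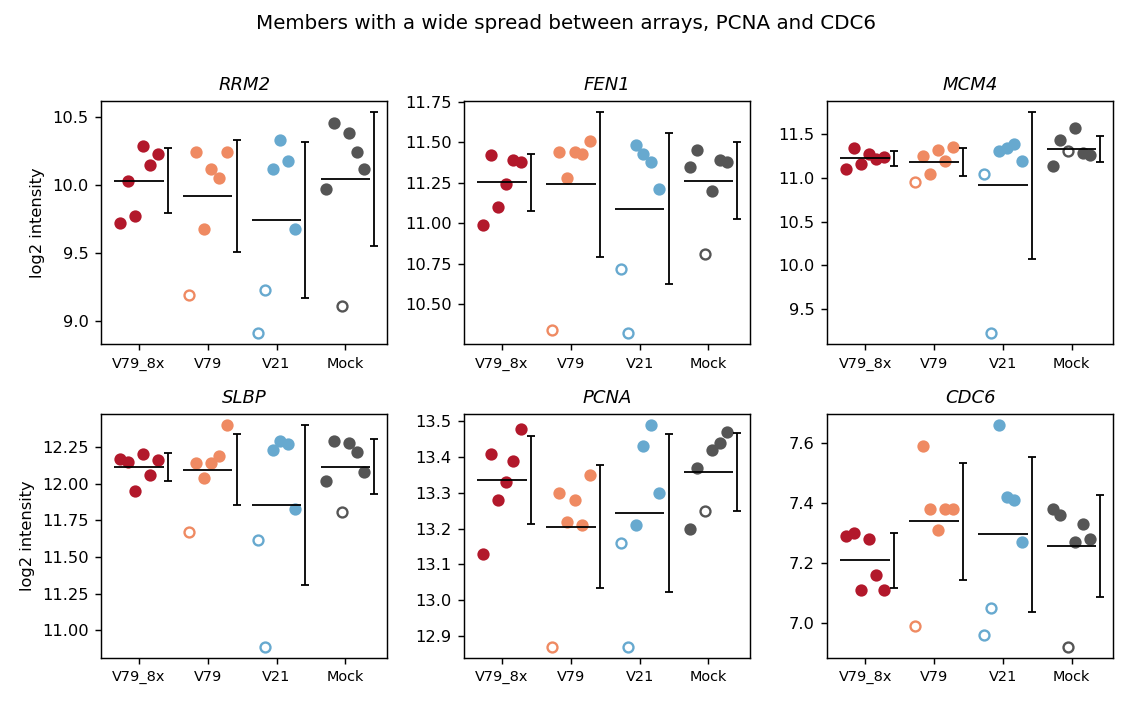
Log2 intensity of RRM2, FEN1, MCM4, SLBP, PCNA and CDC6 on each array, in the order V79_8x, V79, V21, Mock, with the group mean (line) and SD (bar, n = 6). Open points are V79 B, V21 B, V21 C and Mock D, which hold the lowest values of RRM2 and FEN1, and V21 C holds those of MCM4 and SLBP. Each vertical axis covers a narrow range and does not start at 0.

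E2F1, the transcription factor that drives many of these genes, fell against V21 without the 4 arrays. It lay between 10.72 and 10.91 in V79_8x (median 10.76), 10.76 and 10.98 in V79 (median 10.91), 10.77 and 11.39 in V21 (median 10.97), and 10.55 and 10.96 in Mock (median 10.91). With all arrays it was at -0.12 against V79, -0.24 ± 0.08 against V21 and -0.08 against Mock (adjusted p = 0.98, 0.139 and 0.944), lower than V21 in 6 of 6 experiments. Leaving out the 4 arrays, the V79_8x range ended at 10.91 and the V21 range began at 10.92, and E2F1 fell by 0.20 ± 0.05 (adjusted p = 0.0196, 13% lower). The call was lost without V21 D or V21 G (adjusted p of up to 0.0797), with the experiment letter as a block (adjusted p = 0.0782) and with the mean of its 10 spots (adjusted p = 0.0678). Those 10 spots gave differences between -0.28 and -0.21 against V21 on all arrays. With the 4 left out, 2 of the 9 other spots passed against V21 when put in place of the brightest, and 1 of the 9 passed against Mock. On the same 20 arrays E2F1 was at -0.15 against V79 (adjusted p = 0.129) and -0.14 against Mock (adjusted p = 0.0986).

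CCNE1, the cyclin that drives cells into S phase with CDK2, lay between 12 and 12.05 in V79_8x (median 12.04), 12.06 and 12.19 in V79 (median 12.09), 11.94 and 12.15 in V21 (median 12.11), and 11.99 and 12.21 in Mock (median 12.12). The V79_8x and V79 arrays did not overlap, and how many of all genes share that trait was not counted. The difference was -0.08 ± 0.05 (adjusted p = 0.98). It was at -0.05 against V21 and -0.08 against Mock (adjusted p = 0.553 and 0.795). CCNE1 was at -0.08, -0.07 and -0.10 without the 4 arrays (adjusted p = 0.598, 0.619 and 0.212). CCNE2, cyclin E2, was at +0.18, +0.02 and -0.06 against V79, V21 and Mock with standard errors of 0.16, and at +0.06, -0.01 and -0.16 without the 4 arrays, none past the threshold.

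The chromatin genes passed in neither fit. SLBP lay between 11.95 and 12.20 in V79_8x (median 12.16), 11.67 and 12.40 in V79 (median 12.14), 10.89 and 12.29 in V21 (median 12.03), and 11.81 and 12.29 in Mock (median 12.15). Its differences were +0.02, +0.26 and 0.00 from V79, V21 and Mock (adjusted p = 0.994, 0.383 and 1). On the other 20 arrays they were -0.07, -0.04 and -0.06. UHRF1, which brings the maintenance methyltransferase to new DNA, was at -0.19 against V21 (adjusted p = 0.207), and CHAF1A and CHAF1B, subunits of CAF-1, at -0.09 and -0.02. Leaving out the 4 arrays, the 3 were at -0.20, -0.12 and -0.07 against V21, none past the threshold. CHAF1A's dimmer feature was above 0 in V79_8x against Mock, at +0.17 with all arrays and +0.13 without the 4. UHRF1's dimmer feature was at -0.28, -0.40 and -0.31 against V79, V21 and Mock with all arrays. Neither of these features passed.

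In the 3 comparisons without V79_8x, the members showed no call in either fit. In V79 against V21, 0 of 36 passed (0.00665% of all genes did), with a median of +0.02 and 1 member at an unadjusted p under 0.05 (3.82% of all genes), which was CDT1 at -0.13 ± 0.06 (adjusted p = 0.832). In V79 against Mock, 0 of 36 passed (0.00665% of all genes), with a median of -0.02 and 0 members at an unadjusted p under 0.05 (2.7% of all genes). The smallest p there was that of GINS4. In V21 against Mock, 0 of 36 passed (0% of all genes), with a median of -0.04. Of the 36, 2 had an unadjusted p under 0.05 (3.23% of all genes), which were CDT1 at +0.16 and GINS4 at -0.23 (both adjusted p = 0.782). In V79 against Mock, TYMS and PCNA followed GINS4, and in V21 against Mock TYMS followed CDT1. RRM1 and PRIM1 followed CDT1 in V79 against V21, at -0.11 and +0.11 (both adjusted p = 0.832). Without the 4 arrays the counts were again 0, 0 and 0, beside 0%, 0.00665% and 0% of all genes, with medians of -0.02, -0.03 and -0.01. The interval of the difference lay within 1.5-fold for 36 of 36 members in each of them. Members lower at an unadjusted p under 0.05 numbered 0, 3 and 0 without the 4 arrays, in the same order. The 3 in V79 against Mock (8.33%) were MCM10 at -0.11, TYMS at -0.20 and GINS4 at -0.16 (each adjusted p = 0.973). The share of all genes lower at that p in this fit was not counted, so the 8.33% has nothing to stand beside.

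Members were split by whether their promoters hold the E2F words. With all arrays the 17 members with a match had medians of -0.08, -0.09 and -0.07 in V79_8x against V79, V21 and Mock, and the 15 without one -0.05, -0.02 and -0.08. In V79 against V21 the medians were -0.04 (10 of 17 lower) and +0.05 (3 of 15 lower). With the 4 arrays left out, the 17 members with a match had a median of -0.09 in V79_8x against V79, -0.11 against V21 and -0.12 against Mock, and the 15 without one -0.08, -0.10 and -0.11. The differences between the medians of the 2 sets were not tested. MCM6, GINS2 and E2F1, whose windows are printed above, have a match, and MCM10 has none. GINS4, which also passed without the 4 arrays, is in neither set, because no promoter window was matched for it. The same holds for MCM4, MCM5 and CCNE2.

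Other genes of the same processes were read from lists chosen by function. Of 48 other replication genes tested, 1 fell in V79_8x against Mock with all arrays, and 0 passed against V79 or V21. It was POLE, the catalytic subunit of DNA polymerase epsilon, between 8.73 and 9.10 in V79_8x (median 8.87), against 9.13 and 9.56 in Mock (median 9.39). The difference was -0.47 ± 0.11 (adjusted p = 0.0175). With the 4 left out, 4 of 48 fell against Mock: POLE at -0.45 (adjusted p = 0.00548), TOPBP1, which helps origins to fire, at -0.22 (adjusted p = 0.00508), DTYMK, which phosphorylates dTMP, at -0.19 (adjusted p = 0.0113), and RPA3, a subunit of the single-strand binding protein, at -0.16 (adjusted p = 0.0237). POLE also fell against V21 there (-0.38, adjusted p = 0.0434). Lower values were found for 29, 30 and 35 of these 48 genes against V79, V21 and Mock with all arrays, and for 41, 42 and 41 without the 4.

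Of 21 further E2F targets and repair genes of S phase, 2 fell against V21 and 1 against Mock with all arrays. CCNA2, the S and G2 cyclin A2, lay between 11.05 and 11.25 in V79_8x (median 11.20), 11.28 and 11.54 in V21 (median 11.41), and 11.28 and 11.60 in Mock (median 11.46). It fell by 0.24 against V21 and by 0.27 against Mock (adjusted p = 0.0361 and 0.0162). DTL, part of the ligase that destroys CDT1, fell by 0.25 against V21 (adjusted p = 0.0493). With them left out, CCNA2 fell against Mock (adjusted p = 0.0243) and neither gene passed against V21 (adjusted p = 0.0837 and 0.0973).

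Among 14 genes that restrain entry into S phase, BTG2, an antiproliferative p53 target, rose in V79_8x. It lay between 11.57 and 11.82 in V79_8x (median 11.63), 11.37 and 11.57 in V79 (median 11.50), 11.10 and 11.42 in V21 (median 11.30), and 11.25 and 11.52 in Mock (median 11.43). It rose by 0.38 ± 0.07 against V21 and 0.26 ± 0.07 against Mock (adjusted p = 0.00131 and 0.0428), and was at +0.18 against V79 (adjusted p = 0.534). Both calls held without the 4 arrays (+0.36 and +0.29, adjusted p = 0.00234 and 0.00984). RBL1, the retinoblastoma relative p107 and itself an E2F target, fell by 0.35 against V21 (adjusted p = 0.0137), a call lost without the 4 arrays (adjusted p = 0.0799). CDKN1A, the CDK inhibitor p21, lay between 9.85 and 10.37 in V79_8x (median 10.05), against 9.64 and 10.95 in Mock (median 9.90), and did not pass (+0.03 ± 0.24, adjusted p = 0.998). Leaving out the 4 arrays it was at +0.14, +0.39 and +0.21 against V79, V21 and Mock (adjusted p = 0.763, 0.0617 and 0.366).

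Of 25 G2 and mitosis genes, 25 had lower values in V79_8x than in V79, 18 than in V21 and 25 than in Mock with all arrays, with medians of -0.12, -0.09 and -0.15. MKI67, a marker of dividing cells, fell by 0.42 against V21 and by 0.43 against Mock (adjusted p = 0.0152 and 0.0156). NEK2, a mitotic kinase, fell by 0.50 against V21 (adjusted p = 0.00972), and TTK, a kinase of the spindle checkpoint, by 0.32 against Mock (adjusted p = 0.0092). On the other 20 arrays the counts that fell were 3, 1 and 7 of 25, and the NEK2 call was lost (adjusted p = 0.0855). Of 49 replication-dependent histone genes, whose RNA is made in S phase, 2 fell against V79, 12 against V21 and 9 against Mock with all arrays. Without the 4 arrays the counts were 3, 12 and 21, with medians of -0.20, -0.24 and -0.26. Against V79 they were H4C13 and H4C3 (-0.42 and -0.29, adjusted p = 0.033 and 0.0325). The largest differences past the threshold with all arrays were those of H1-5, H3C2, H4C5 and H4C8 against V21 (-0.89 to -0.62). With V21 B, V21 C, V79 B and Mock D left out, these 4 were at -0.46, -0.44, -0.38 and -0.45, and the calls of H1-5 and H4C5 were lost (adjusted p = 0.167 and 0.0545). Against Mock the largest were those of H4C11, H4C6, H4C8 and H4C12 (-1.15 to -0.81), which kept their calls on the other 20 arrays (-1.08 to -0.73). Histone genes are close copies of one another, and a feature may hybridise to more than one of them.

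The enzymes of nucleotide metabolism that interferon induces went the other way. CMPK2, a mitochondrial nucleotide kinase, lay between 11.39 and 12.14 in V79_8x (median 11.70), 8.43 and 8.96 in V79 (median 8.79), 8.21 and 8.86 in V21 (median 8.79), and 8.33 and 9.16 in Mock (median 8.86). It rose by 2.98, 3.04 and 2.89 against V79, V21 and Mock (adjusted p = 9.9e-14, 3.73e-14 and 1.46e-13). SAMHD1, which breaks down deoxynucleotides, lay between 8.34 and 8.64 in V79_8x (median 8.39), 7.90 and 8.76 in V79 (median 8.07), 7.67 and 9.13 in V21 (median 8.11), and 7.89 and 8.65 in Mock (median 8.11). It did not pass with all arrays (adjusted p = 0.98, 0.739 and 0.883), and without the 4 it rose by 0.40, 0.48 and 0.35 (adjusted p = 0.00587, 0.00143 and 0.0128).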

How the data were processed

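RNA from 24 SH-SY5Y cultures (100 ng each, Cy3, 1 colour) was read on arrays of 62976 features. The authors deposited log2 intensities, already normalised; the array names carry IntNorm, and neither the method nor the software is given in the labels. Columns were matched by sample identifier, with the experiment letter and construct read from the sample titles, and 0 were left out. RefSeq accessions or symbols named 37051 features, the brightest feature stood for each of 20061 genes, and the dimmest 25% (mean up to 6.43) were left out. Groups were compared with limma 3.58.1 (R 4.3.3), 4 groups in 1 fit without covariates, with Benjamini-Hochberg adjustment over 15045 genes. The fit was tested on simulated data with planted differences and independent noise for each gene and array. That simulation held no arrays standing apart and no genes moving together, so it cannot test the calls that depend on these. The number of arrays limits the precision. The members and lists were chosen with earlier results of these data known, and the named members are the 3 with the smallest p in each comparison, those past the threshold in either fit, and PCNA, RRM2, CCNE1, E2F1, CDC6 and SLBP. From other lists up to 4 called genes per comparison with the largest change are named, or the 1 with the smallest p. Other members and CDKN1A, MCM7's dimmer feature and SAMHD1 were named after their values were seen. Alternatives were leaving out each array, leaving out the 4 arrays, array weights, the mean of features, other filters and the experiment letter as a block. Same-letter arrays deviated together in every pair (correlations of 0.18 to 0.57) only in V79_8x against Mock, where the block left the count of members called at 0.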

Additional observations from a re-analysis of the deposited data

Results flagged for a closer look

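Of 144 gene and group combinations checked, 17 had 1 array whose gap to the nearest other array of its group was above Dixon's 95% critical value, where chance gives about 1 in 20. On V79 B the lowest values of the group were ORC1 at 7.83, CDC45 at 12.84, PCNA at 12.87, FEN1 at 10.34 and CCNE2 at 7.88. On V21 C they were MCM4 at 9.22, MCM5 at 12.18 and GINS2 at 12.02. On Mock D they were CDC6 at 6.92, MCM10 at 9.58, RFC5 at 11.58, RRM2 at 9.11, CCNE2 at 8.21, E2F1 at 10.55 and CHAF1B at 11.6. These 15 lie on the arrays that stood apart over all genes. The other 2 were high values on V79_8x F, MCM5 at 12.64 and E2F1 at 10.91, an array that stayed in both fits.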

How the results depend on the processing

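The count of members called depended on the 4 arrays and on how they were weighted. In V79_8x against V21 it was 0 with all arrays, 3 without the 4, 2 with array weights (GINS2 and E2F1), and 0 to 2 when each array was left out in turn. Without V21 E the 2 were CDT1 and RRM1, and without V21 C the 1 was GINS2. In V79_8x against Mock it was 0 with all arrays, 3 without the 4, 5 with array weights (MCM6, MCM10, GINS2, GINS4 and RRM1), and 0 whichever array was left out. Array weights of the 4 were 0.17 (V79 B), 0.17 (V21 B), 0.1 (V21 C) and 0.18 (Mock D). Most members were low on the 4 arrays, so leaving them out or giving them little weight raised most levels that V79_8x was compared with. Without the 4 the standard errors of MCM6, GINS2, GINS4 and E2F1 also shrank. E2F1 passed against V21 there with a smaller difference, -0.201 ± 0.048 beside -0.235 with all arrays. What else lay behind these changes was not tested. Alternatives on the other 20 arrays were chosen after seeing the data. There the count against V21 was 1 without V21 E and ranged from 1 to 4 over the arrays left out, and against Mock it ranged from 2 to 4 and was 6 with array weights. The experiment letter as a replicate block gave 0 members in all 6 comparisons with all arrays, and 3 against V21 and 4 against Mock on the other 20. No call turned its direction, but several differences that passed in neither fit did. Without the 4 arrays V79_8x against V79 was at -0.034 for RRM2 and -0.067 for SLBP, and V79_8x against V21 at -0.046 for RRM2, -0.04 for SLBP and -0.021 for PCNA, all above 0 with all arrays; MCM4 and FEN1 turned likewise against V21 (-0.08 and -0.12). V79 against V21 turned to -0.011 for RRM2, -0.032 for CDC6 and -0.024 for the median member, which was -0.026 with array weights, and V79 against Mock to 0.004 for SLBP. The mean of all features put PCNA at 0.002 in V79_8x against Mock and 0.003 in V79 against V21. With 1 array left out in turn, differences that changed sign ranged from -0.034 to 0.176 (RRM2) and -0.067 to 0.079 (SLBP) in V79_8x against V79, and in V79_8x against Mock from -0.202 to 0.068 (RRM2), -0.063 to 0.033 (SLBP) and -0.053 to 0.02 (PCNA). In V79 against V21 they ranged from -0.113 to 0.029 (PCNA) and -0.024 to 0.116 (CDC6), in V79 against Mock from -0.314 to 0.019 (RRM2), -0.018 to 0.071 (E2F1) and -0.081 to 0.065 (SLBP), and in V21 against Mock from -0.035 to 0.105 (CDC6). The median member difference with 1 array left out lay between -0.09 and -0.04 in V79_8x against V79, -0.08 and -0.03 against V21, and -0.12 and -0.05 against Mock. With all arrays the 95% intervals of RRM2, MCM4 and SLBP reached past 1.5-fold in at least 1 comparison, so changes of that size were not resolved there.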
